A study of Mus musculus with 6 samples.

Results

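The genes described here build the machinery that gives a cell a top and a bottom and gives a sheet or column of cells a common direction. They are 10 genes fixed by name: Pard3, Pard6a, Pard6b, Prkci and Prkcz of the apical PAR complex, Scrib and Llgl1 of the basolateral module, and Vangl2, Celsr1 and Prickle1 of the planar cell polarity core. All 10 were among the 17020 genes tested, each through the probe set of that gene alone with the highest mean signal. RNA came from hindlimb growth plate chondrocytes, which make the cartilage that lengthens bones, of mice at postnatal day 30. A group of 3 control samples was compared with a group of 3 samples from mice with a conditional mutation of Lkb1 (now Stk11), all on a mixed background of FVB, 129S6 and a C57 strain, each on its own single-channel Affymetrix array. The labels name neither the driver of the conditional mutation nor the alleles the controls carry. They call the samples biological replicates without saying that each came from its own animal, so a p-value here covers the spread between samples, which may be technical.

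In the apical module the scaffold Par3, the adaptor Par6 and an atypical protein kinase C form one complex, and the kinase and the basolateral proteins Scribble and Lgl keep each other out of their own parts of the membrane. LKB1 belongs to the same founding set of polarity genes, since it is the mammalian form of the nematode protein PAR-4. In planar polarity, Celsr cadherins bridge neighbouring cells, with Frizzled and Dishevelled on one side and Vangl and Prickle on the other. In the growth plate this system is known for orienting flattened chondrocytes as they divide and slide into columns. Coordinates are left out because the sources give the arrays no build.

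The arrays themselves differed in their signal of marrow genes. All 16 cartilage markers exceeded the background on every array, the background being the 95% point of 1035 olfactory receptor probe sets on that array (6.40 to 6.73). Levels throughout are log2(intensity + 1), and a difference is the mutant mean minus the control mean of such levels. Stk11 was at 8.68 to 9.67 in the controls and at 7.39 to 7.52 in the mutants, and whether its probes lie in the deleted part was not analysed here. Over 26 marrow genes (red cell, neutrophil and B cell lineages) the mean level in control replicates 1, 2 and 3 was 8.29, 9.03 and 9.76, while the mutants lay at 5.83 to 6.10. Control replicate 3 thus carried the most marrow signal and control replicate 1 the least. In bulk RNA, fewer cells of a type and less RNA per cell cannot be told apart.

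None of the 10 polarity genes passed the test between mutant and control arrays. Limma called 0 of 10 at an adjusted p of 0.05, where it called 14.7% of all genes tested. At an unadjusted p under 0.05 there were 2, Pard3 and Celsr1, against 29.5% of all genes tested. Weighting the arrays in limma, where the weights did not converge, called 3 of the 10 and 47.0% of all genes tested. The 10 differences lay between -0.31 and 0.29, with 5 above and 5 below 0, and their median was -0.0073 against 0.029 for all genes tested. The median size of a difference, without its sign, was 0.087 for these genes and 0.16 for all genes tested. Standard errors of 0.085 to 0.13 went with these differences, near the median of 0.11 over all genes. In this fit a polarity gene needed a difference of 0.31 to 0.49 to be called, depending on its own error. The outermost bound of all the 95% intervals was -0.63, for Vangl2, which is a 1.54-fold change.

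**Figure D1:**
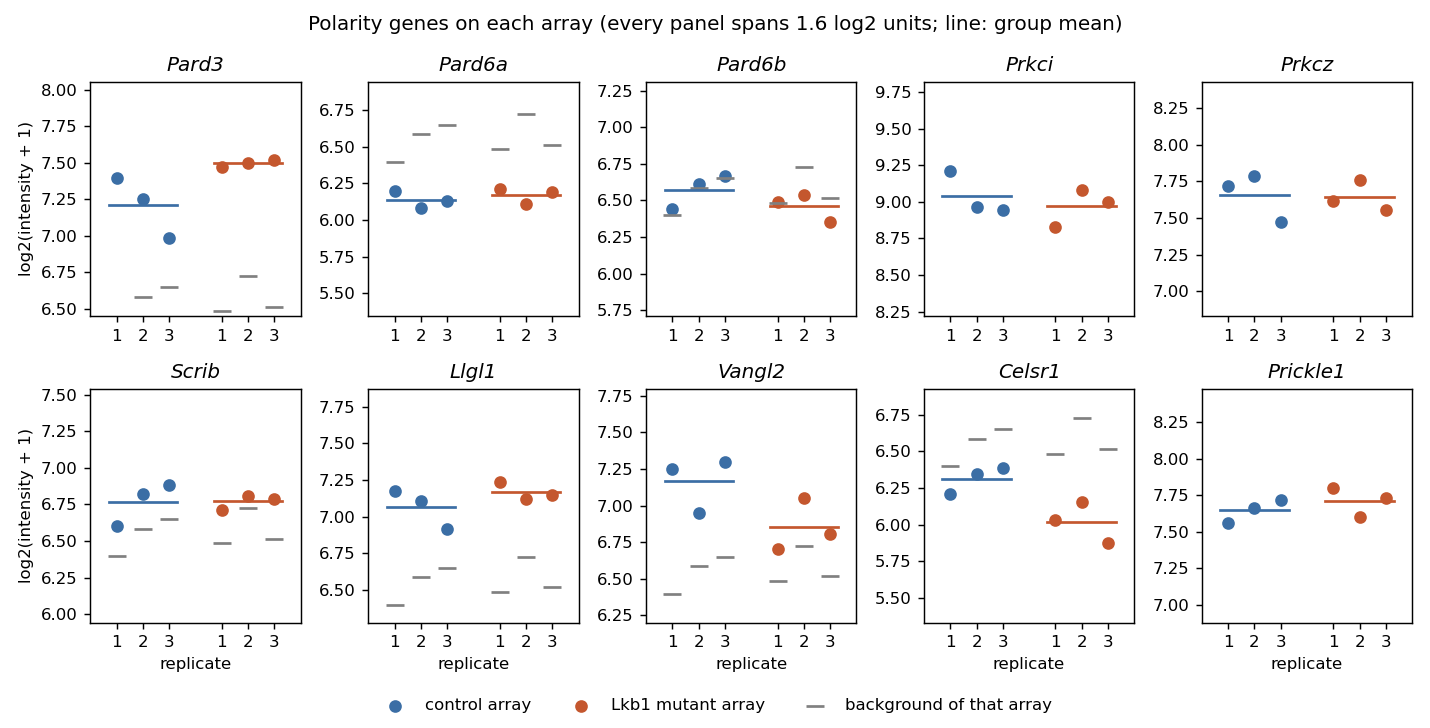
Level of each polarity gene as log2(intensity + 1), 1 point per array, with the group mean as a line and, where it falls inside the panel, the background of that array as a grey dash. Control and mutant points overlap for 8 of 10 genes, while all Pard3 points are higher and all Celsr1 points lower in the mutants.

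Pard3, the scaffold that recruits the apical complex to cell contacts, was at 7.39, 7.25 and 6.98 in control replicates 1, 2 and 3. The mutant arrays read 7.47, 7.50 and 7.52. Every mutant array was above every control array, and the mutants lay within 0.025 (SD) of each other while the controls spread by 0.21. The difference was 0.29 (SE 0.12, n = 3 per group, 95% interval 0.015 to 0.56), a 1.22-fold higher mean, with a limma adjusted p of 0.149. The lowest control value came from the array with the most marrow signal and the highest from the array with the least. Prkci and Llgl1 had the same order among the controls, while Pard6b, Scrib, Celsr1 and Prickle1 had the opposite order. Without control replicate 3 the Pard3 difference was 0.18, and without both control replicates 2 and 3 it was 0.10. Pard3 was the 1 polarity gene with higher groups that do not overlap, a pattern found in 20.0% of all genes tested (36.7% had groups without overlap in either direction).

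Pard6a and Pard6b encode Par6 adaptors, which link Par3 and the small GTPase Cdc42 to the kinase. Pard6a was at 6.20, 6.08 and 6.13 in the controls and at 6.21, 6.11 and 6.19 in the mutants, below the background on each of the 6 arrays. Its groups overlapped almost completely, and with signal at this level a change in Pard6a could not be read from this probe set. Pard6b was at 6.44, 6.61 and 6.67 in the controls and at 6.49, 6.54 and 6.35 in the mutants. These values straddle the background, which was exceeded on 3 control arrays and 1 mutant array. The Pard6b difference was -0.12 (95% interval -0.35 to 0.12, limma adjusted p = 0.503), and it was 0.018 without both control replicates 2 and 3.

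Prkci and Prkcz encode the kinases of the complex, aPKC iota/lambda and aPKC zeta. Prkci was at 9.21, 8.97 and 8.95 in the controls and at 8.83, 9.08 and 9.001 in the mutants. On the linear scale these are intensities of 454 to 592. The groups overlapped, and the difference was -0.071 (SE 0.11, 95% interval -0.34 to 0.19, limma adjusted p = 0.725). Prkcz was at 7.72, 7.79 and 7.47 in the controls and at 7.62, 7.76 and 7.55 in the mutants, again overlapping. Its difference was -0.016 (SE 0.11, 95% interval -0.28 to 0.25, limma adjusted p = 0.943). Prkcz is the 1 polarity gene with a second probe set, which read 7.42, 7.20 and 7.43 in the controls and 7.51, 7.41 and 7.59 in the mutants. That probe set gave a difference of 0.15, with a limma adjusted p of 0.415 over all probe sets, so the 2 probe sets differ in sign and neither passed the test. Array by array they also rank the controls differently, since control replicate 2 was the highest on one and the lowest on the other.

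Scrib and Llgl1 encode the basolateral proteins Scribble, a large scaffold at cell contacts, and Lgl, a substrate of atypical protein kinase C. Scrib was at 6.60, 6.82 and 6.88 in the controls and at 6.71, 6.81 and 6.79 in the mutants. The means coincided, with a difference of 0.0013 (SE 0.10, 95% interval -0.24 to 0.24, limma adjusted p = 0.995). Its lowest value was in control replicate 1, and without that array the difference was -0.082. Llgl1 was at 7.17, 7.11 and 6.92 in the controls and at 7.23, 7.12 and 7.15 in the mutants. The Llgl1 groups overlapped, and the difference was 0.10 (SE 0.099, 95% interval -0.13 to 0.33, limma adjusted p = 0.542). As for Pard3, the lowest Llgl1 value was in control replicate 3, and without both control replicates 2 and 3 the difference was -0.0035.

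The planar core held 2 of the 3 polarity genes with the largest differences. Vangl2, the membrane protein whose loss misorients cells in many tissues, was at 7.25, 6.95 and 7.30 in the controls and at 6.70, 7.05 and 6.81 in the mutants. One control array lay below one mutant array, so the groups overlapped. The difference was -0.31 (SE 0.13, 95% interval -0.63 to 0.0014), a 1.24-fold lower mean, with a limma adjusted p of 0.171. It kept its sign under each alternative tried, from -0.42 to -0.11, and its adjusted p ranged from 0.111 to 0.398. The value nearest to 0 came from array weights, which favoured control replicate 2, the lowest of the controls for this gene, and without both control replicates 2 and 3 it was -0.40.

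Celsr1, the seven-pass cadherin that links planar polarity across cell borders, was at 6.21, 6.35 and 6.38 in the controls and at 6.03, 6.16 and 5.88 in the mutants. Each mutant array was below each control array, but all 6 values were below the background. The difference was -0.29 (SE 0.10, 95% interval -0.54 to -0.047), with a limma adjusted p of 0.11. It was -0.19 without both control replicates 2 and 3. Lower groups without overlap were found in 16.7% of all genes tested. Prickle1, the cytoplasmic partner of Vangl proteins, was at 7.56, 7.66 and 7.72 in the controls and at 7.80, 7.60 and 7.73 in the mutants. The Prickle1 groups overlapped, with a difference of 0.063 (SE 0.095, 95% interval -0.16 to 0.28, limma adjusted p = 0.712).

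**Figure D2:**
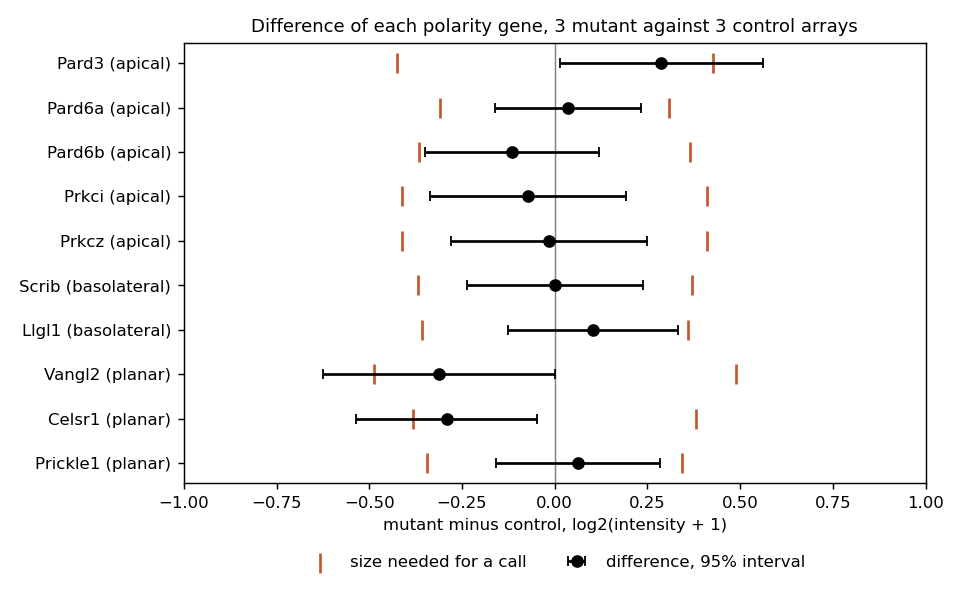
Mutant minus control difference of each polarity gene on the log2(intensity + 1) scale with its 95% interval from the limma fit (3 arrays per group), and the size of difference that gene needed for a call as a red tick. Every point lies inside its ticks, and the intervals of Pard3 and Celsr1 leave out 0.

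The mean over the 10 genes moved little from array to array. Averaged over the 10 genes, the controls stood at 7.18, 7.16 and 7.14, and the mutants at 7.11, 7.17 and 7.10. Within a group, 8 of the 10 genes varied more among the controls than among the mutants. The median SD was 0.14 in the controls and 0.098 in the mutants, against 0.16 and 0.096 over all genes tested. Several marker lists moved more over the same arrays. The mean level of the cartilage list moved little, at 11.42 to 11.65 in the controls and 11.51 to 11.61 in the mutants. The summed intensity of the erythroid list was 2002 to 8254 in the controls and 268 to 302 in the mutants, and that of the neutrophil list was 9080 to 22003 and 1103 to 1520. The B lymphoid sum was 2263 to 3991 in the controls and 474 to 551 in the mutants. Endothelial markers summed to 1066 to 1219 and 1758 to 2111, fibrous tissue markers to 10718 to 12193 and 15740 to 16095, and macrophage and osteoclast markers to 1690 to 1934 and 3008 to 3828. Of these lists, 5 of 6 genes of the erythroid list, 10 of 12 of the neutrophil list and 7 of 8 of the B lymphoid list fell, while 8 of 10 endothelial and 6 of 10 fibrous genes rose. Of 9 macrophage and osteoclast genes, 6 rose and 1 fell. Background shares were 7.84% of genes called higher and 6.82% called lower. Epithelial cells, where apical polarity is best known, left little trace: 2 of 9 epithelial markers exceeded the background on all arrays, none of the 8 tested was called, and Krt14, Krt19, Cldn4 and Esrp1 did not exceed it on any array. The osteoblast sum was 7113 to 8403 in the controls and 10064 to 11271 in the mutants. The mean level of the osteoblast list overlapped, at 8.97 to 9.35 in the controls and 9.26 to 9.34 in the mutants. The skeletal muscle sum was 922 to 1022 and 1062 to 1223. Of the 6 osteoblast genes 1 rose and 1 fell, and of the 8 muscle genes 2 rose. What part these cells have in the value of any polarity gene was not tested.

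**Figure D3:**
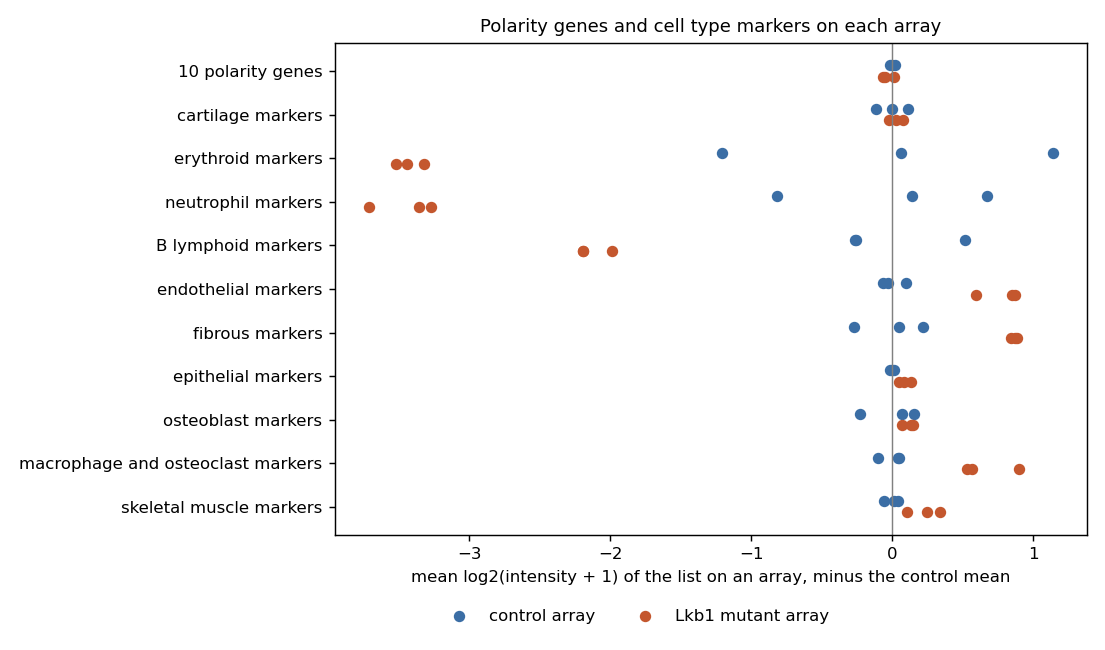
Mean log2(intensity + 1) of the 10 polarity genes and of each marker list on an array, minus that list's control mean, with 1 point per array. Polarity genes and cartilage markers stay near 0 in both groups, marrow lists lie far lower in the mutants, and endothelial, fibrous and macrophage lists lie higher.

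Several other planar polarity genes did differ between the groups, mostly upward. Among direct relatives of Vangl2, Celsr1 and Prickle1, Prickle2 and Celsr2 were called higher, and Vangl1, Celsr3 and Prickle3 were not called. Of 27 other planar polarity genes tested, 11 rose and 1 fell, 44.4% against the 14.7% of all genes. Their median difference was 0.28 against 0.029. The gene lists were chosen with earlier results of these data known, so their called shares, here and below, are descriptive only. Fat4 and Dchs1 encode giant cadherins that bind each other across cell borders in a second planar polarity system. Fat4 was at 7.13, 6.87 and 6.84 in the controls and at 8.18, 8.21 and 8.52 in the mutants, a gap of over 1 between the groups. It rose by 1.36 (SE 0.13, limma adjusted p = 0.00111), a 2.56-fold change, and Dchs1 rose by 0.99 (SE 0.10, limma adjusted p = 0.0014). Dchs1 was at 6.82 to 7.02 in the controls and at 7.80 to 8.05 in the mutants. Both calls held under each alternative tried.

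Prickle2, the close relative of Prickle1, was at 6.42, 6.11 and 6.21 in the controls and at 7.21, 7.17 and 7.24 in the mutants. It rose by 0.96 (SE 0.10, limma adjusted p = 0.00164), although only 1 of 3 control arrays exceeded the background, which limits the size that can be read. Fzd3, a Frizzled receptor of planar polarity, rose by 0.69 (SE 0.099, limma adjusted p = 0.00473), with all controls and 1 mutant at background. Among planar genes named after their values were seen, Fjx1, the relative of a fly kinase that modifies Fat and Dachsous cadherins, rose by 0.56 and Fat3 by 0.56. The receptor Ror2 rose by 0.51 and its ligand Wnt5a by 0.48, Wnt5a at background on all arrays. Fzd6, Celsr2 and Smurf1, the last a ubiquitin ligase that targets Prickle, rose by 0.34, 0.36 and 0.40. Wnt5b, a Wnt ligand of prehypertrophic cartilage, was the 1 planar gene that fell, by 0.64 (SE 0.085, limma adjusted p = 0.00363). The calls of Ror2, Wnt5a, Fzd6, Celsr2, Fjx1 and Smurf1 each ended without mutant replicate 3, with adjusted p of up to 0.18 for Wnt5a over the arrays left out. Except for Fjx1 they also ended without control replicate 2 and without mutant replicates 1 and 2, for Celsr2, Fzd6 and Wnt5a without control replicate 3, and for Fzd6 and Wnt5a without control replicate 1. Median centring also ended the calls of Celsr2 (limma adjusted p = 0.0836), Fzd6 (0.0534) and Wnt5a (0.0658). The replicate number as a block ended those of Celsr2, Fzd6, Wnt5a and Smurf1. Dishevelled genes, which carry the signal inside the cell, differed by 0.020 (Dvl1), 0.095 (Dvl2) and 0.17 (Dvl3) and were not called. The count of 12 was 7 without control replicate 2, and 7, 7 and 6 without mutant replicates 1, 2 and 3. It was 9 with median centring and 8 with the replicate number as a block. Endothelial and fibrous markers rose on the same mutant arrays, and what part they have in these values was not tested.

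Of 11 genes tested in the planar effector list, 4 rose and none fell. That is 36.4% of the list against the 14.7% of all genes (7.84% higher). Lrp6, of the canonical Wnt branch, is 1 of the 4. Cthrc1, a secreted protein that favours the planar over the canonical Wnt response, was at 8.44, 7.75 and 7.70 in the controls and at 9.96, 9.48 and 9.89 in the mutants. It rose by 1.81 (SE 0.22, limma adjusted p = 0.00255). Lrp6, the Wnt co-receptor of the canonical branch, rose by 0.89 (SE 0.10, limma adjusted p = 0.00211), and Daam2, a formin, by 0.82. Daam2 was at 7.76, 7.39 and 7.11 in the controls, lowest on the array with the most marrow signal. Cthrc1, Lrp6 and Mink1 were also lowest among the controls on that array. What part marrow signal has in these values was not tested. Daam2 was less stable than Cthrc1 and Lrp6. Its call ended without control replicate 2 and without each mutant replicate, with adjusted p of up to 0.0622. The kinase gene Mink1 rose by 0.33, a call that ended without each array except control replicate 1, with adjusted p of up to 0.161, and also with median centring (0.0959) and quantile normalisation (0.0529). The count of 4 was 2 without control replicate 2 and 2 without each mutant replicate. Rhoa and Rock1, which drive the actin response, differed by -0.039 and -0.35 and were not called.

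Of 29 other apical and basolateral genes, 5 rose and 2 fell, 24.1% of the list against the 14.7% of all genes, with a median difference of 0.15. Dlg4, a scaffold of the Discs large family, was at 7.43, 7.33 and 7.00 in the controls and at 8.02, 7.96 and 7.99 in the mutants. It rose by 0.74 (SE 0.12, limma adjusted p = 0.00838). Lin7a, a small adaptor of the Crumbs complex, rose by 0.74 (SE 0.17), and its call ended without each mutant replicate, with adjusted p of up to 0.106. Pard6g, the other Par6 gene, rose by 0.72 (SE 0.12, limma adjusted p = 0.00909), but all controls and 2 of 3 mutants were at background. Ect2, an exchange factor for small GTPases that acts in cytokinesis, fell by 0.97 (SE 0.19, limma adjusted p = 0.0147). The Ect2 controls read 8.004, 8.31 and 8.80, highest on the array with the most marrow signal. The other called genes of this list were lowest among the controls on that array. The Ect2 call ended without control replicate 2 and without each mutant replicate, with adjusted p of up to 0.0604. Gpsm2, which orients the mitotic spindle, fell by 0.60 (SE 0.082, limma adjusted p = 0.00415); it, Dlg5 (0.61) and Rac1 (0.29), the other calls, were named after their values were seen. Dlg5 lost its call without control replicate 2 and without each mutant replicate (adjusted p of up to 0.129). Rac1 lost its call without any 1 of the 6 arrays (up to 0.182). Both calls also ended with median centring (limma adjusted p of 0.0582 and 0.099), and that of Rac1 with quantile normalisation (0.0611). Cdc42, the GTPase that binds Par6, differed by 0.039 and the Crumbs complex genes Mpp5 and Patj by 0.24 and -0.18, none of them called. The count of 7 was 4 without control replicate 2 and 3 without each mutant replicate.

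**Figure D4:**
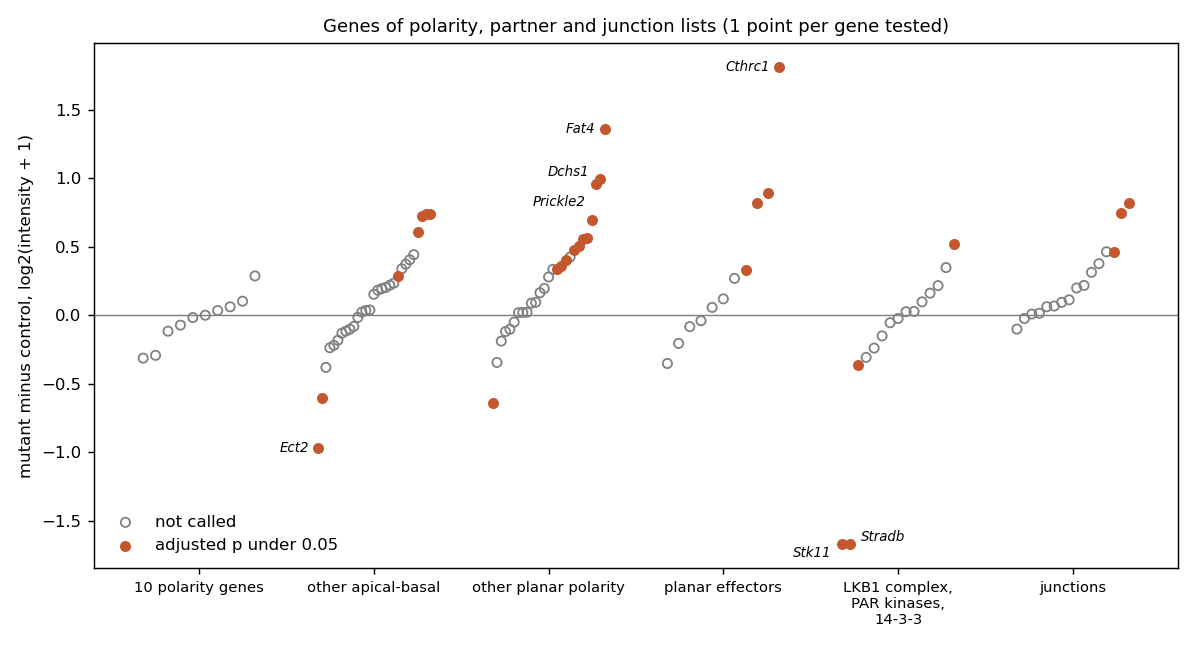
Mutant minus control difference of each gene tested on the log2(intensity + 1) scale, by list, with called genes (limma adjusted p under 0.05) filled. The 10 polarity genes span -0.31 to 0.29 with none called, while other planar polarity genes reach 1.36 (Fat4).

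Stk11 itself and Stradb had the largest decreases in the list of LKB1 partners and PAR kinases. The list holds 15 genes for the LKB1 complex, the PAR-1 kinases Mark1 to Mark4 and the PAR-5 (Ywha) proteins. Of these, 1 rose and 3 fell, 26.7% of the list against the 14.7% of all genes. The 3 include Stk11, the gene mutated by design, so this share partly restates how the groups were defined. Stk11 fell by 1.67 (SE 0.22, limma adjusted p = 0.00387), and its control levels of 8.68, 9.08 and 9.67 had the same order as the marrow signal on those arrays. Stradb, the gene of a pseudokinase that activates LKB1, was at 6.72, 7.44 and 8.44 in the controls and at background in all mutants (5.81 to 5.91). Its highest level was in control replicate 3, where marrow signal was also highest. Stradb fell by 1.67 (SE 0.37), a call that ended without control replicate 2 and without each mutant replicate, with adjusted p of up to 0.0839. Without both control replicates 2 and 3 the Stk11 and Stradb differences were -1.21 and -0.86. Mark2, a PAR-1 kinase that LKB1 phosphorylates and that acts against Par3, fell by 0.36 (SE 0.095, limma adjusted p = 0.0448). Its call ended without each mutant replicate and without control replicates 2 and 3 in turn, with adjusted p of up to 0.145, and with the mean of its probe sets (0.111). Ywhag, the gene of a protein that binds phosphorylated Par3, rose by 0.52 (SE 0.090, limma adjusted p = 0.01), a call that ended without mutant replicate 3 (adjusted p = 0.0599). The count of 4 was 2 without control replicate 2, 2 without mutant replicate 1, 2 without mutant replicate 2 and 1 without mutant replicate 3.

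Of 16 junction genes tested, 3 rose and none fell, 18.8% of the list, a share near the 14.7% of all genes, so the count sets this list little apart. Jam3, a junctional adhesion molecule of the family that anchors Par3, was at 6.61, 6.78 and 6.28 in the controls and at 7.46, 7.37 and 7.29 in the mutants. It rose by 0.82 (SE 0.14, limma adjusted p = 0.00868), and this call held under each alternative tried. Cdh2, N-cadherin, rose by 0.75 (SE 0.13) from levels at background in all controls, a call that ended without mutant replicate 3 (adjusted p = 0.0508). Nectin1, the gene of a cell adhesion protein that can also bind Par3, rose by 0.47 (SE 0.099), a call that ended without control replicate 2 and without each mutant replicate, with adjusted p of up to 0.0829. The count of 3 was 1 without mutant replicate 3.

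Since several other polarity genes rose and the 10 genes themselves did not pass, 13 pairs of a polarity gene with another member of its family were compared. Each pair was taken as a log2 ratio within each array. The pairs were chosen with the values known, and several share a gene. In 7 of 13 pairs the ratio did not overlap between the groups, 6 lower and 1 higher in the mutants. Among single genes, 36.7% of all tested had groups without overlap, and no such share was worked out for ratios. Most of the 6 lower pairs include Pard6g, Celsr1 or Prickle2, whose own levels did not overlap either. Each of the 7 ratios has a two-sided exact permutation p of 0.1, the smallest that 3 against 3 arrays can give. Over the pairs the adjusted p is 0.186 for each. So none could pass the threshold. The ratio of Prickle1 to Prickle2 shifted by -0.90 and lay between -1.03 and -0.64 over the alternatives, with Prickle2 above background on only 1 of 3 control arrays, so the size of this shift is uncertain. The ratio of Vangl2 to Vangl1 shifted by -0.59, with Vangl1 itself at a difference of 0.28 (limma adjusted p = 0.229). The ratios of Celsr1 to Celsr2 and to Celsr3 shifted by -0.65 and -0.31, both resting on Celsr1 values at background and the second also on Celsr3 values at background. For Pard6a and Pard6b against Pard6g the shifts were -0.69 and -0.84, with Pard6a at background on all arrays and Pard6g on all but 1. Prickle1 against Prickle3 was the pair that shifted upward, by 0.25. The ratios of Prkci to Prkcz (-0.055), of Llgl1 to Llgl2 (0.067) and of Pard3 to Pard3b (-0.15) overlapped between the groups. So did those of Pard6a to Pard6b (0.15), of Scrib to Erbin (0.13) and of Scrib to Lrrc1 (0.38), the last 2 being genes of proteins with leucine-rich repeats like those of Scribble.

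**Figure D5:**
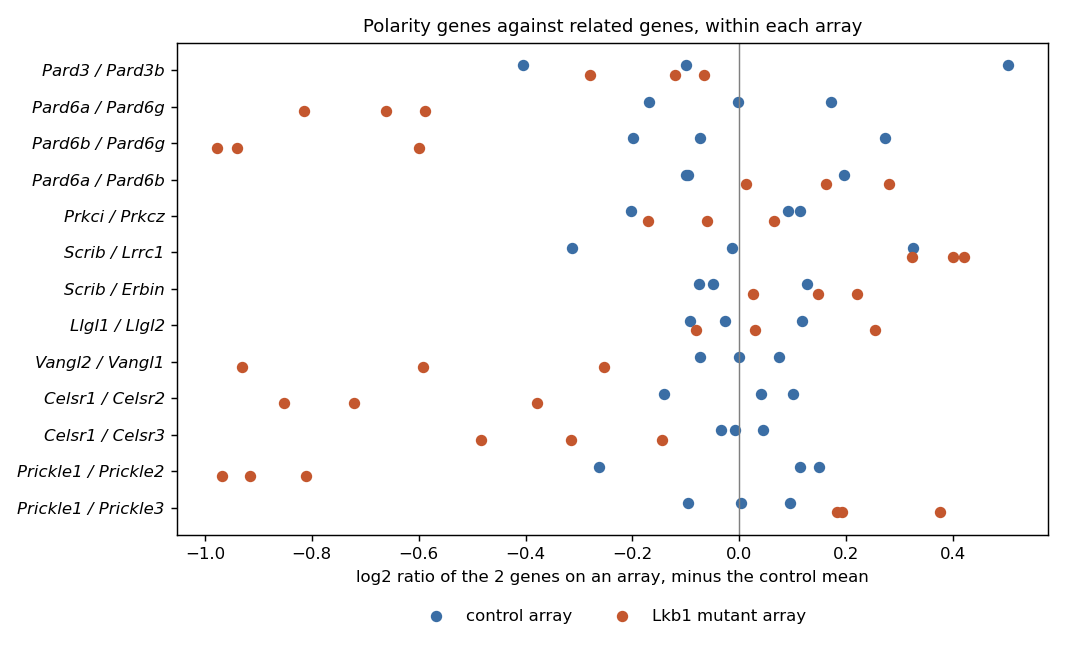
Log2 ratio of a polarity gene to a related gene on each array, minus the control mean of that ratio, for 13 pairs with 1 point per array. Mutant points lie left of all control points for 6 pairs and right of them for Prickle1 against Prickle3.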

How the data were processed

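The values are the probe set intensities the authors deposited, on a linear scale from 0.74 to 9001 for 35512 probe sets on 6 arrays. Per the labels' protocols, 300 ng of total RNA was made into biotinylated cDNA with a whole-transcript kit. The authors' summary method, background correction and normalisation are not given in these sources. Every value column matched a sample (0 left out).

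Gene names came from the platform annotation and, by gene number, from RefSeq (GRCm38.p6): 21789 had 1 gene, 1621 several, and 12102 were not listed. Of the 1-gene probe sets 21698 matched by gene number. Deposited intensities were turned into log2(intensity + 1). Probe sets in the lowest 25% of means (below 5.56) were left out, and per gene the brightest was kept. Limma 3.58.1 in R 4.3.3 (lmFit, eBayes, two-sided) compared 3 mutant with 3 control arrays, with Benjamini-Hochberg adjustment over 17020 genes and calls made at 0.05. The fit was tested on simulated data with equal spread in both groups, unlike these arrays, so that test does not cover their uneven spread. Array number limits the precision.

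The 10 genes, the gene lists and the alternatives were chosen with earlier results of these data known. Apart from the 10 genes and Stk11, up to 4 called genes with the largest difference are named per list. Others are uncalled examples, related genes or calls said to be named after their values were seen. Dchs2 and Rock2 had no probe set of 1 gene, Ocln was below the filter, and 1 other junction gene is not reported here. Alternatives changed the scaling (quantile, median), the filter (none, median), the pseudocount (16), the probe sets (their mean per gene) or the model (trend, array weights, replicate block), or left out arrays. The settings for the ratios of related genes were added after the data were seen.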

Additional observations from a re-analysis of the deposited data

How the results depend on the processing

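Of 16 alternatives to the fit, array weights alone called any of the 10 polarity genes, a fit that did not converge and gave control replicate 2 most of the weight of its group. It called 3 of them, Pard3 (0.26, adjusted p = 0.00696), Celsr1 (-0.36, 0.00356) and Pard6b (-0.18, 0.0423), among 8006 genes in all and 45 of the 67 other planar, apical and basolateral genes. Leaving out each array in turn gave 936 to 3282 calls over all genes against 2496, and 11 to 24 of those 67 against 23. Small differences changed sign, none of them called. Without both control replicates 2 and 3, where the lone control is assumed to vary like the mutants, Pard6a was at -0.028, Pard6b at 0.018 and Llgl1 at -0.0035. Scrib was at -0.0019 with quantile normalisation, -0.0077 with median centring, -0.039 with array weights and -0.082 to 0.058 with an array left out. Prkci was at 0.013 with array weights and -0.13 to 0.014 with an array left out. Prkcz was at 0.068 as the mean of its probe sets and -0.11 to 0.048 with an array left out. Pard3, Vangl2, Celsr1 and Prickle1 kept their sign in each alternative that gave a value. Pard6a and Celsr1 fell below the filter at the median. Of 30 called genes in the other lists, 11 kept the call under all 16 alternatives, and 2, Pard6g and Fzd3, kept it in the 15 that gave them a value.

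With the replicate number as a block, 2031 genes, 0 polarity genes and 17 of the 67 others were called. The numbers give no pairing in the labels, and same-numbered arrays deviated together with correlations of 0.080, 0.21 and -0.083. The signal of Pard6a, Pard6b and Celsr1, at or near background, limits what can be read of them.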
